A study of Mus musculus with 2 samples.

Results

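Among carcinoma cells of subcutaneous CMT167R tumours, the cells with the strongest hypoxia signature were set against the remaining carcinoma cells and compared between PKCi-treated and solvent-treated mice. CMT167R derives from the mouse lung carcinoma line CMT167; the labels give its cells as anti-PD1 resistant and its genotype as WT, and the tumours grew in C57BL/6 mice. One group was given PKCi, a compound known from the labels by this name alone, at 3 mg/kg daily by intraperitoneal injection, and the other was given control solvent. Tumours were collected when control tumours measured 400 mm3 and the labels report a volume difference between the groups, so treatment and tumour size cannot be told apart. There was 1 droplet library per treatment, and the labels do not state how many mice or tumours went into each, so no difference had a replicate and no test was possible.

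Carcinoma cells were taken as barcodes with at least 500 genes, at least 10000 unique molecular identifiers (UMIs), at most 20% mitochondrial UMIs, no UMI of the leukocyte gene Ptprc, and at least 3 UMIs each of the keratin gene Krt8 and the homeobox gene Rhox5. This gate held 8735 of 14145 barcodes, of which 4475 were PKCi and 4260 control. Members were the 5% of the gate, both libraries pooled, with the largest share of UMIs from Adm, Bnip3, Ndrg1, Slc2a1 and Ankrd37. There were 436 members, with 95 from the PKCi library and 341 from the control library, and 8299 other barcodes made up the rest of the gate. The 5 genes chose the members, so their levels are a description.

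When oxygen falls, the prolyl hydroxylases that mark HIF-1alpha for destruction through the von Hippel-Lindau protein lose activity, and the stabilised factor pairs with ARNT on DNA. The targets raise glucose uptake and glycolysis, hold pyruvate out of mitochondria, remove mitochondria, modify collagen and recruit vessels. In solid tumours such cells typically lie away from perfused vessels. Adm encodes the vasodilator peptide adrenomedullin, Bnip3 a mitophagy receptor, Ndrg1 a stress-induced differentiation protein, Slc2a1 the glucose transporter GLUT1 and Ankrd37 an ankyrin repeat protein, and each is a known HIF-1 target.

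The libraries held 229219749 UMIs (PKCi) and 222641855 UMIs (control). Median depth was 31878 UMIs in PKCi members and 37735 in control members, against 37661 in the PKCi rest and 39649 in the control rest. The median mitochondrial share was 1.33% in PKCi and 1.33% in control members, against 1.52 and 1.75% in the rest. Scrublet called 19 PKCi and 27 control gate barcodes doublets, and none of them was a member. The libraries shared 20 barcode sequences over all barcodes, 4 in the gate and 0 among members. The carcinoma label held for part of its markers. Median Krt8, which the gate required, was 12 UMIs per member in each library, against 16 in the PKCi rest and 14 in the control rest, and median Rhox5, also required, was 12 in PKCi and 15 in control members, against 17 and 22 in the rest. Vim, an intermediate filament of mesenchymal cells, was at 2787 CPM in PKCi and 2964 CPM in control members, against 2722 and 2791 CPM in the rest, where CPM stands for UMIs per 1e6 UMIs. The epithelial adhesion gene Epcam had 0 UMIs in members of either library and 1 UMI in the rest of each, so this epithelial marker was at or near 0 in the whole gate. Krt18, a keratin gene also among the carcinoma markers, was sparse and was called lower in members in both libraries, with values given further on.

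The score ran without a gap across the threshold. The lowest 3 members had 837.5, 838.6 and 838.7 UMIs of the 5 genes per 1e6 UMIs, and the highest 3 barcodes outside had 836.9, 833.2 and 832.4. Within 10% of the threshold lay 71 members and 107 other barcodes. The median score was 1107 in PKCi members and 1251 in control members, against 150.0 in the PKCi rest and 182 in the control rest. The 5 genes were all detected in 48.4% of PKCi members and 70.7% of control members, against 8.47 and 14.98% of the rest. In 31 of 95 PKCi and 71 of 341 control members, 1 gene gave over 50% of the score. That gene was most often Ndrg1 in PKCi members (16 barcodes) and Adm in control members (43 barcodes).

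Adm was at 385 CPM in PKCi and 466 CPM in control members, against 24.03 and 34.1 CPM in the rest. Ndrg1 was at 412 and 332 CPM in members, against 63.95 and 62.7 CPM in the rest, and Slc2a1 was at 354 and 388 CPM in members, against 63.5 and 81.5 CPM in the rest. Bnip3 was at 178 and 194 CPM in members, against 25.99 and 43.1 CPM in the rest, and Ankrd37 was at 42.1 and 46.7 CPM in members, against 12.5 and 14.6 CPM in the rest. In these levels, which chose the members, the ratio to the rest was largest for Adm and smallest for Ankrd37. Each gene was also measured in members chosen by the other 4 genes alone, so that its own UMIs did not choose them. Adm was then at 283 CPM in PKCi and 394 CPM in control members, against 25.5 and 41.1 CPM in the rest, 11.1- and 9.59-fold higher. The same ratios, PKCi library first, were 5.23 and 4.02 for Bnip3, 4.29 and 4.21 for Ndrg1, 4.59 and 4.24 for Slc2a1, and 3.15 and 2.899 for Ankrd37. Every rule gene was higher where the other 4 were high, in both libraries.

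The promoter windows of 4 of the 5 rule genes are shown because HIF binds a short core, ACGTG or GCGTG, and these genes chose the members together. Each is the 250 bases before the start site in RefSeq (GRCm38.p6), written 5′ to 3′ on the gene's strand, with cores on either strand in capitals; on the opposite strand ACGTG reads CACGT and GCGTG reads CACGC. Adm lies at chr7:110627407-110627656 on the plus strand, Bnip3 at chr7:138909507-138909756 on the minus strand, Slc2a1 at chr4:119108495-119108744 on the plus strand and Ankrd37 at chr8:45999851-46000100 on the minus strand.
Adm: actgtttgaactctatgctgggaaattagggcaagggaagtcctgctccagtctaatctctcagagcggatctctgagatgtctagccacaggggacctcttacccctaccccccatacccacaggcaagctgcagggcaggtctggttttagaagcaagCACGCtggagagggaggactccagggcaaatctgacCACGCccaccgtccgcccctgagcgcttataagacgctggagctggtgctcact
Bnip3: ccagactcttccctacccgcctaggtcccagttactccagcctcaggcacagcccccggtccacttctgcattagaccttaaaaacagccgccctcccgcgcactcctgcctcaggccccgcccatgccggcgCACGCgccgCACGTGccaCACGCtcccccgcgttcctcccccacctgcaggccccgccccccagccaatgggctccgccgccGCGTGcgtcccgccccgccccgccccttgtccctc
Slc2a1: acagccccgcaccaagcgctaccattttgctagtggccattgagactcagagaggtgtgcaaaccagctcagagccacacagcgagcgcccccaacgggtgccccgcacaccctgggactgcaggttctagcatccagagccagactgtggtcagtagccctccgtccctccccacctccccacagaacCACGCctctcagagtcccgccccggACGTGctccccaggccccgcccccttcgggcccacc
Ankrd37: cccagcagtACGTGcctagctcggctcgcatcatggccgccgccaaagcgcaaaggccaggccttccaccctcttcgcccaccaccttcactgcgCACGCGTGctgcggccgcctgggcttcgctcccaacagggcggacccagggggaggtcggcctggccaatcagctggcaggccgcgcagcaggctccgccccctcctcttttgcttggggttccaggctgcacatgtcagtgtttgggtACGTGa

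Adm held 2 cores, both GCGTG. Bnip3 held 5, of which 2 were the ACGTG cores of the 2 strands of 1 palindrome. Slc2a1 held 1 ACGTG, which begins 36 bases before the start, and 1 GCGTG. Ankrd37 held 2 ACGTG and 2 GCGTG. Such cores are common: among first listed windows, 38.6% of those of 27025 genes and 62.5% of those of the 2723 matched genes at the level filter given further on held at least 1. Of the 44 matched genes higher in members in both libraries, 29 (65.9%) held a core, as did 33 of the 57 (57.9%) matched genes that were lower. In the HIF target list 25 of 30 matched genes (83.3%) held a core. A match describes the letters of this window and is not a binding site.

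Members made up a smaller share of the PKCi library. They were 2.12% of PKCi gate barcodes (95 of 4475, 95% Clopper-Pearson interval 1.72 to 2.59%) and 8.005% of control gate barcodes (341 of 4260, interval 7.21 to 8.86%), a ratio of 0.265 with an interval of 0.212 to 0.332. All intervals here are 95% intervals that cover counting error only. With the gate divided into 5 equal steps of depth, the share was between 1.44 and 3.16% in PKCi and between 6.13 and 9.91% in control barcodes, lower in PKCi at every step. Leaving out each rule gene in turn gave between 86 and 101 PKCi members and between 335 and 350 control members. The top 5% by a score made instead of other HIF targets and glycolysis genes held 83 PKCi and 353 control barcodes, and 199 of these 436 were members by the first rule, 45.6% of either set. With 1 library per treatment, the difference cannot be told apart from one between tumours or dissociations.

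**Figure D1:**
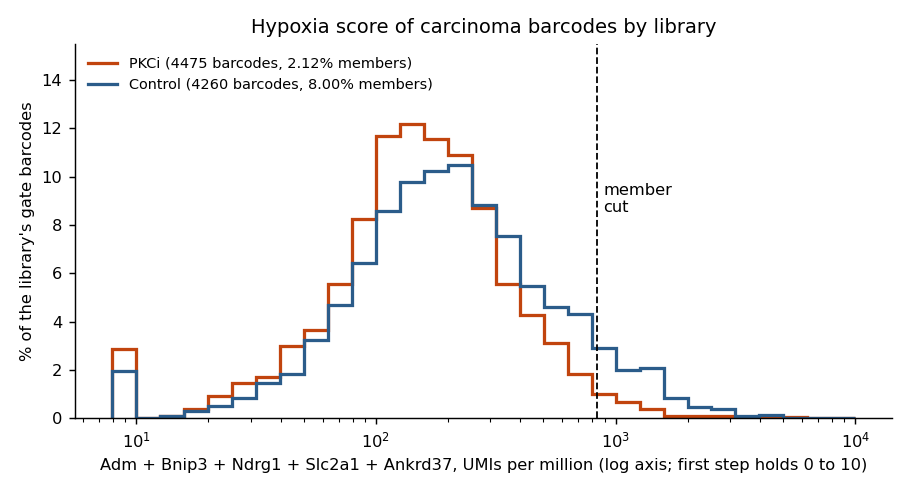
Distribution of the hypoxia score (UMIs of the 5 genes per 1e6, log axis) as a percentage of each library's gate barcodes. The PKCi curve (orange) lies at lower scores than the control curve (blue), and 2.12% of PKCi against 8.005% of control barcodes lie right of the dashed threshold, which crosses a continuous tail.

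Genes were then compared between members and the rest within each library. UMIs were summed over the barcodes of each group, 3417740 UMIs in PKCi and 14101228 in control members, against 181613078 and 170381367 in the rest. A gene was called when the ratio was at least 1.5-fold either way, with its interval apart from 1, in both libraries in the same direction. Among genes with at least 50 UMIs and 50 CPM in at least 1 sum, 52 of 3377 (1.54%) were higher in members and 73 (2.16%) were lower. For gene lists the filter was at least 20 UMIs. At this filter in both libraries, 228 of 15587 genes (1.46%) were higher and 307 (1.97%) lower. Over the genes that passed it in each library on its own, the median log2 ratio was 0.01 in PKCi and -0.09 in control. The rule genes are left out of these counts and lists. All genes were read in the cells that chose the members, so the counts describe the members and test nothing.

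HIF targets outside the rule were higher in members. Of 36 measured, 21 were called higher and none lower, with a median log2 ratio of 1.05 in the PKCi and 0.81 in the control library. The list summed to 3143 CPM in PKCi and 3328 CPM in control members, and to 3508 and 3700 CPM in leukocyte barcodes. Single genes differed there, with Vegfa at 327 and 217 CPM and Plod2 at 8.22 and 8.32 CPM in leukocyte barcodes. The part of free leukocyte RNA in these differences was not tested. Among signals to vessels, Vegfa, the main growth factor of vessel sprouting, was at 93.9 CPM in PKCi and 69.9 CPM in control members, against 24.8 and 20.02 CPM in the rest, 3.79-fold (3.37 to 4.24) in PKCi and 3.49-fold (3.25 to 3.75) in control. Angptl4, a lipase inhibitor that also acts on vessels, was at 37.5 and 42.4 CPM in members, against 11.4 and 18.2 CPM in the rest. Pgf, placental growth factor, which stood in the list of secreted ligands, was at 19.3 and 16.2 CPM in members, against 0.953 and 1.53 CPM in the rest, with UMIs in 21 of 95 PKCi and 68 of 341 control members. In each library the intervals of these 3 ratios lay apart from 1.

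Several called genes of this list encode enzymes of protein maturation. P4ha2, a collagen prolyl hydroxylase, was at 46.2 CPM in PKCi and 37.3 CPM in control members, against 8.07 and 9.09 CPM in the rest. Plod2, a lysyl hydroxylase that sets collagen cross-links, was at 173 and 200.3 CPM in members, against 59.9 and 73.4 CPM in the rest. P4ha1 was 2.198- and 1.71-fold and Plod1 2.32- and 1.71-fold higher in the PKCi and control libraries. Ero1l, the oxidase that drives disulfide formation in the endoplasmic reticulum, was at 184 and 256 CPM in members, against 64.5 and 81.8 CPM in the rest.

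Other called genes of the list have roles in mitochondria, lipid droplets and acid balance. Bnip3l, a mitophagy receptor related to Bnip3, was 2.08- and 1.75-fold higher in PKCi and control members than in the rest. Pdk1, the kinase that shuts off pyruvate dehydrogenase, was 2.16- and 1.83-fold higher. Hilpda, which blocks lipid droplet breakdown, was at 405 CPM in PKCi and 452 CPM in control members, against 119 and 129 CPM in the rest. Plin2, a coat protein of lipid droplets, was 2.66- and 2.298-fold higher. Car9, the carbonic anhydrase often used to stain tumour hypoxia, was sparse, with 24 UMIs in 9 PKCi members and 80 UMIs in 40 control members, at 7.02 and 5.67 CPM in members, against 0.798 and 1.17 CPM in the rest.

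Some known targets did not pass the rule. Tfrc, the transferrin receptor, was at 51.8 CPM in PKCi and 45.6 CPM in control members, against 86.6 and 45.5 CPM in the rest. Pfkfb3, which makes an activator of phosphofructokinase, was at 12.6 and 18.8 CPM in members, against 19.5 and 19.4 CPM in the rest. Loxl2, a lysyl oxidase, was at 127 and 83.5 CPM in members, against 82.04 and 83.5 CPM in the rest.

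In the HIF machinery, 5 of 12 measured genes were higher and none lower; Egln3 and Kdm3a also stand in the target list. Egln3, an oxygen-sensing prolyl hydroxylase that HIF induces, was at 179 CPM in PKCi and 207 CPM in control members, against 51.2 and 67.6 CPM in the rest, and its relative Egln1 was 2.35- and 1.88-fold higher. Cited2, which competes with HIF for its coactivator, was 2.04- and 1.88-fold higher, Kdm3a, a histone demethylase, 1.87- and 1.97-fold, and Bhlhe41, a repressor, 1.92- and 2.42-fold. The transcript of Hif1a, whose protein is the oxygen-regulated one, did not pass the rule and was at 182 CPM in PKCi and 139.6 CPM in control members, against 134 and 135 CPM in the rest. Arnt, its partner, did not pass and was at 52.4 and 52.5 CPM in members, against 40.7 and 39.3 CPM in the rest.

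Of 22 glycolysis genes, 7 were higher and none lower, with medians of 0.60 in the PKCi and 0.53 in the control library. Pgk1, an ATP-forming kinase of glycolysis, was at 1437 CPM in PKCi and 1462 CPM in control members, against 661 and 860.1 CPM in the rest. Aldoa, the aldolase, was 1.99- and 1.61-fold higher, the phosphofructokinase Pfkp 2.05- and 1.72-fold, Gpi1 1.72- and 1.67-fold and Tpi1 1.64- and 1.501-fold. Pfkl and the glycogen synthase gene Gys1 completed the called set. Lactate dehydrogenase Ldha was 1.47-fold (1.42 to 1.52) in PKCi and 1.32-fold (1.299 to 1.34) in control, short of the 1.5-fold limit.

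**Figure D2:**
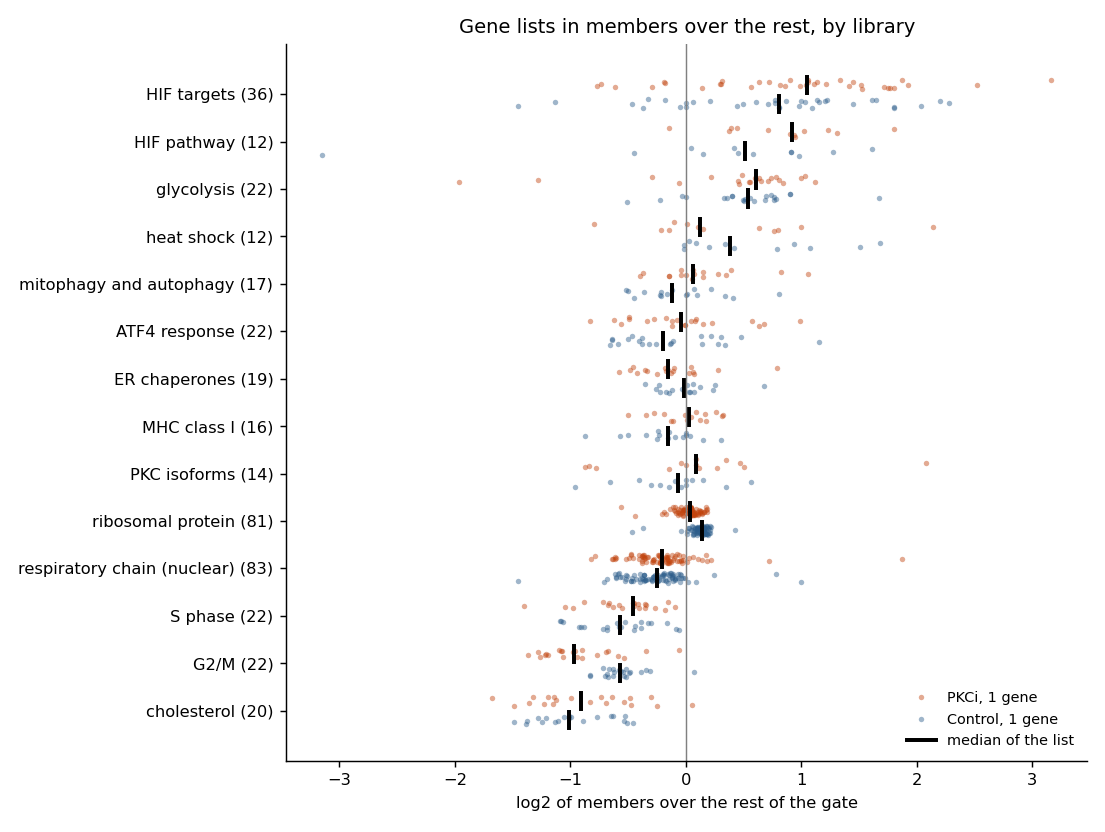
Log2 ratio of members over the rest of the gate for the genes of each list, with the number of measured genes in brackets, PKCi (orange) above control (blue) and black bars at the medians. HIF targets have medians of 1.05 in the PKCi and 0.81 in the control library, and the cholesterol and G2/M lists lie left of 0 in both libraries.

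Of 6 measured genes in the list of metallothioneins and zinc handling, 2 were called higher and none lower, with medians of 0.63 in the PKCi and 0.56 in the control library; the called genes were Mt1 and Mt2. Mt1, a metallothionein that binds zinc and copper, was at 1739.8 CPM in PKCi and 3663 CPM in control members, against 429 and 868 CPM in the rest, 4.06-fold (3.95 to 4.17) in PKCi and 4.22-fold (4.18 to 4.26) in control. It was detected in 93 of 95 PKCi members. Mt2, its neighbour of the same function, was at 989.8 and 1774 CPM in members, against 229 and 482 CPM in the rest. Hmox1, the enzyme that breaks down haem, was at 50.3 and 122 CPM in members, against 8.61 and 31.8 CPM in the rest, and it was at 264 and 1172 CPM in PKCi and control leukocyte barcodes. Macrophage markers, 8 genes, summed to 64.1 CPM in PKCi and 44.1 CPM in control members, against 60.3 and 44.6 CPM in the rest and 14268 and 14498 CPM in leukocyte barcodes. Of these 8, Cd68 was called higher in members, and the median log2 ratio was 0.33 in PKCi and -0.01 in control. The part of macrophage RNA in the Hmox1 difference was not tested. Of 18 measured NRF2 targets, 1 was called higher, Hmox1.

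Of 12 heat shock genes, 4 were higher and none lower. Hspa1b, an inducible HSP70, was at 46.8 CPM in PKCi and 71.6 CPM in control members, against 10.7 and 22.4 CPM in the rest. The cochaperone Dnajb1 was 1.99- and 1.73-fold higher, Hsph1 1.74- and 1.92-fold and Hspa1a 1.69- and 2.104-fold. Hspa1a and Hspa1b are near-identical copies, so reads may have been split or lost between them in counting. The constitutive Hspa8 was 0.903- and 0.988-fold the level of the rest.

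Other genes with the 15 highest ratios had varied roles. Areg, a ligand of the EGF receptor, was at 139.6 CPM in PKCi and 113 CPM in control members, against 36.6 and 44.4 CPM in the rest. Ackr3, an atypical receptor that scavenges the chemokine CXCL12, was at 66.7 and 59.4 CPM in members, against 17.8 and 15.6 CPM in the rest. Ptgs2, the inducible cyclooxygenase of prostaglandin synthesis, was at 98.3 and 58.7 CPM in members, against 17.9 and 22.7 CPM in the rest, 5.49-fold (4.88 to 6.13) in PKCi and 2.58-fold (2.39 to 2.78) in control. The PKCi members held Ptgs2 in 50 barcodes, of which 1 gave 64 of 336 UMIs. Leukocyte barcodes held it at 428 CPM in PKCi and 511 CPM in control, and the part of free leukocyte RNA was not tested. Fn1, the matrix protein fibronectin, was at 457 and 225 CPM in members, against 152 and 133 CPM in the rest, and at 3018 and 693 CPM in leukocyte barcodes. Dusp4, a MAP kinase phosphatase, was 1.899- and 2.99-fold higher, and Pcdh7, a protocadherin, 2.61- and 1.78-fold. Of 32 secreted ligands in the list, 3 were called higher, Areg, Pgf and Tgfb2, and none lower.

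Sterol genes were lower. Of 20 genes of the cholesterol list, 13 were lower in members and none higher, with medians of -0.91 in the PKCi and -1.01 in the control library. Fdps, which makes farnesyl diphosphate, was at 47.4 CPM in PKCi and 72.8 CPM in control members, against 134 and 190.3 CPM in the rest. Idi1, an isomerase just before it in the chain, was at 12.3 and 21.3 CPM in members, against 39.7 and 59.6 CPM in the rest. Cyp51, an oxygen-using demethylase, was 0.4003- and 0.422-fold the level of the rest and Hmgcs1 0.452- and 0.503-fold. Srebf2, which encodes the sterol-sensing regulator of the chain, did not pass the rule and was at 41.5 and 43.1 CPM in members, against 51.5 and 61.3 CPM in the rest. Outside the list, Elovl6, an elongase of fatty acids, was at 23.99 and 26.5 CPM in members, against 58.6 and 69.2 CPM in the rest.

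Proliferation genes were lower. Of 22 S phase genes, 8 were lower and none higher, with medians of -0.46 in the PKCi and -0.57 in the control library. Of 22 G2/M genes, 9 were lower and none higher, with medians of -0.97 in the PKCi and -0.57 in the control library. Tyms, which makes thymidylate, was at 26.04 CPM in PKCi and 38.8 CPM in control members, against 68.99 and 73.5 CPM in the rest. Cenpe, a kinetochore motor, was at 48.6 and 62.97 CPM in members, against 117 and 112 CPM in the rest, and Spc24, a kinetochore protein, was at 35.99 and 56.8 CPM in members, against 107 and 113 CPM in the rest. Linker histone Hist1h1b, Stmn1, a regulator of microtubules, Pclaf, which binds the replication clamp, Tk1, a thymidine kinase, and Cdca3, of mitotic entry, were also among the 15 lowest, with Hmgn5, Gchfr, Dctpp1 and Limd2.

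Cells were then counted by cycle genes after each barcode was thinned to 10000 UMIs. At least 3 G2/M genes were found in 53.7% (51 of 95, interval 43.2 to 63.98%) of PKCi members and 66.3% (226 of 341, interval 60.99 to 71.3%) of control members, against 79.5% and 79.9% of the rest. Without thinning the shares were 82.1% and 89.4% of PKCi and control members, against 93.2% and 94.97% of the rest. For S phase genes the thinned share was 90.5% in PKCi and 91.8% in control members, against 91.9% and 91.6% in the rest. Nearly all barcodes of every group passed this count, so it could show little difference in S phase. Per barcode, the summed level of the S phase list had a median of 632 CPM in PKCi and 880 CPM in control members. In the rest these medians were 1234 and 1287 CPM.

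**Figure D3:**
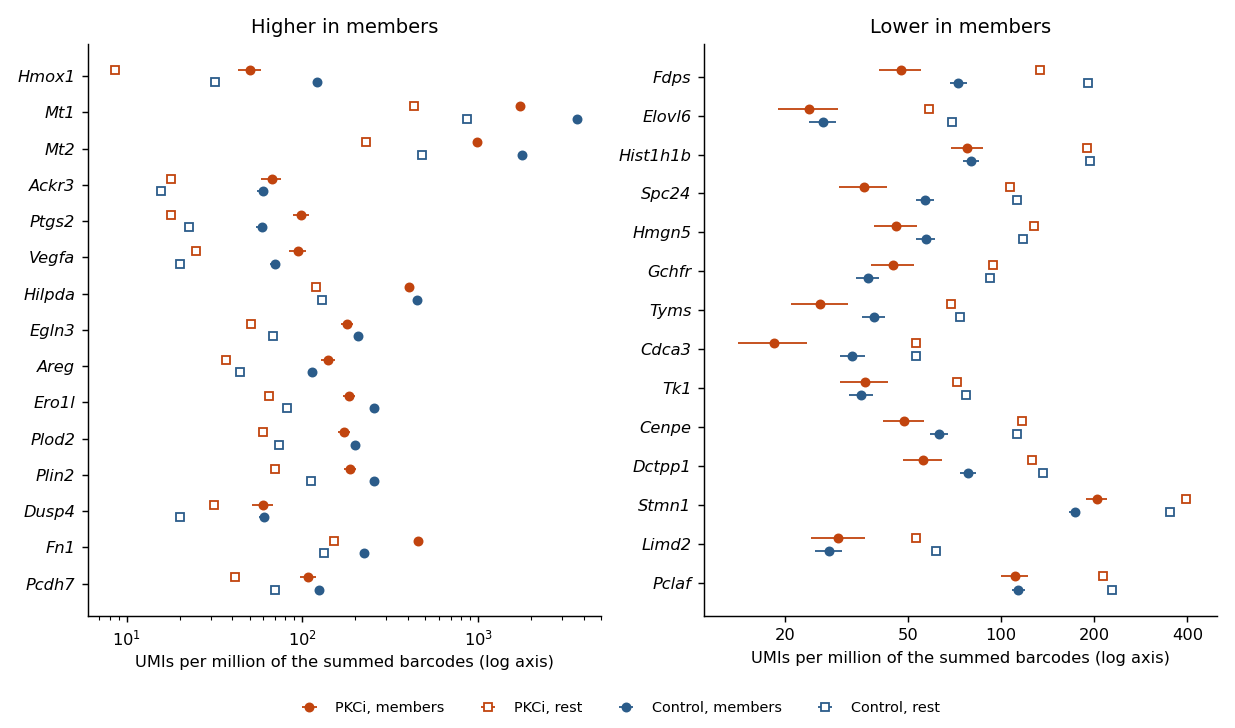
Levels of genes with extreme ratios of members over rest in either direction, in UMIs per 1e6 on a log axis; filled circles are members, open squares the rest, PKCi orange and control blue, and bars are exact Poisson intervals. Vegfa was at 93.9 CPM in PKCi and 69.9 CPM in control members, against 24.8 and 20.02 CPM in the rest, and Fdps at 47.4 CPM in PKCi and 72.8 CPM in control members, against 134 and 190.3 CPM in the rest.

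Nuclear genes of the respiratory chain had ratios below 1 in 73 of 83 cases in PKCi and 78 in control, with median log2 ratios of -0.21 in the PKCi and -0.25 in the control library. Of these, 3 passed the rule, Ndufa4, Ndufc1 and Atp5g1. Ndufa4, a subunit of cytochrome oxidase, was at 208 CPM in PKCi and 241 CPM in control members, against 367 and 392 CPM in the rest. None of the 13 mitochondrially encoded genes was called, with medians of -0.06 in the PKCi and -0.34 in the control library. None of 81 ribosomal protein genes was called either, with medians of 0.04 in the PKCi and 0.14 in the control library.

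Genes of PKC, XIAP and antigen presentation, which the study's title touches, had few calls. None of 14 measured PKC family genes was called, and Prkca, which encodes PKC-alpha, was at 98.9 CPM in PKCi and 124 CPM in control members, against 71.7 and 83.5 CPM in the rest. Xiap was at 31.3 and 33.2 CPM in members, against 34.3 and 37.9 CPM in the rest. Of 10 apoptosis inhibitors and antagonists, 1 was called, Birc5, which also acts in mitosis and was at 96.6 and 130.2 CPM in members, against 221 and 208 CPM in the rest. None of 16 MHC class I genes was called, and H2-D1 was at 1056 and 1007 CPM in members, against 1050.0 and 1004 CPM in the rest. In the list of the ATF4 stress response, 22 genes, Ddit4, an mTORC1 inhibitor that HIF also induces, was higher (1.98- and 2.23-fold) and Phgdh, of serine synthesis, lower (0.563- and 0.633-fold the level of the rest).

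The remaining lists had 1 or 2 calls each. Of 19 endoplasmic reticulum chaperone and stress genes, Dnajb9 was higher, of 18 immediate early genes Fosl2, of 19 mesenchymal genes Fn1, and of 17 mitophagy and autophagy genes Bnip3l. Of 18 NF-kB genes 2 were lower: Icam1, an adhesion molecule, was at 4.39 CPM in PKCi and 5.11 CPM in control members, against 12.4 and 13.7 CPM in the rest, and Tnf had 0 UMIs in PKCi members and 27 in control members (1.91 CPM), against 1.74 and 3.099 CPM in the rest. Of 9 measured epithelial genes Krt18 was lower, with 2 UMIs in PKCi and 36 UMIs in control members, at 0.585 and 2.55 CPM in members, against 5.02 and 7.13 CPM in the rest. Of 12 cell cycle inhibitors and cyclins, Ccng2, a cyclin linked to arrest, was higher (2.73- and 2.13-fold), and Ccne1, the cyclin of S phase entry, was lower (0.651- and 0.459-fold the level of the rest).

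Markers of other cell types were given for the same groups. Neutrophil markers summed to 7.31 CPM in PKCi and 41.4 CPM in control members, against 6.53 and 44.9 CPM in the rest, and 858 and 14359 CPM in leukocyte barcodes. T cell markers summed to 2.05 CPM in PKCi and 1.21 CPM in control members, against 1.17 and 0.9802 CPM in the rest, with 4 of 5 at 0 in PKCi and 2 of 5 in control members. Endothelial markers summed to 21.1 CPM in PKCi and 10.1 CPM in control members, against 13.1 and 15.3 CPM in the rest. Pericyte markers summed to 6.14 CPM in PKCi and 7.09 CPM in control members, against 12.7 and 15.2 CPM in the rest, and 1 of the 2 measured, Pdgfrb, was called lower in both libraries. Fibroblast markers summed to 212 CPM in PKCi and 127 CPM in control members, against 123 and 176 CPM in the rest, and 65 of the 69 Col1a1 UMIs of PKCi members came from 1 barcode. Of these 6 markers, the matrix proteoglycan genes Dcn (5.02- and 3.02-fold) and Lum (6.39- and 1.55-fold) were called higher in both libraries. The other 4 were below the level of the rest in the control library, where 3 were called lower, and the list's median log2 ratio was 2.50 in PKCi and -0.64 in control. Monocyte markers, which include Fn1, summed to 488 CPM in PKCi and 253 CPM in control members, against 173 and 157 CPM in the rest. The part of these markers' cells in the gene differences was not tested.

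Members lay near one another in genes the rule did not use. The rule genes, the gate genes, both HIF lists and the glycolysis list were left out, and neighbours were sought within each library. On average 8.70% of the 15 nearest neighbours of a PKCi member were members. This compares with 1.14% around the PKCi rest and 2.12% of the PKCi gate barcodes. In the control library 27.3% of the neighbours of members were members, against 5.28% around the rest and 8.005% of the control gate barcodes. In the PKCi library 38.9% of members had no member among their neighbours, and in the control library 9.09%. Most neighbours of members were other carcinoma cells.

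The gate was also divided into 20 equal bins of the score, with members in the last. In bins 1, 10, 19 and 20, HIF targets summed to 1205, 1423, 2248 and 3143 CPM in the PKCi library and 1216, 1534, 2528 and 3328 CPM in the control library. They were thus above the lowest bins already in the bin just short of the members. Mt1 stood at 376, 408, 1029 and 1739.8 CPM in those PKCi bins and 504, 623, 2120.3 and 3663 CPM in the control bins. Cholesterol genes ran the other way, with 839.6, 677, 439 and 345 CPM in PKCi and 1175, 899, 585 and 421 CPM in control. The share of PKCi barcodes in these bins was 61.6, 54.00, 30.7 and 21.8%, lowest among the members. Csf2, the myeloid growth factor GM-CSF, was higher in the PKCi library in all 20 bins, with 34.4 CPM in the lowest bin and 115 CPM in the last, against 17.8 and 20.3 CPM in the control library.

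**Figure D4:**
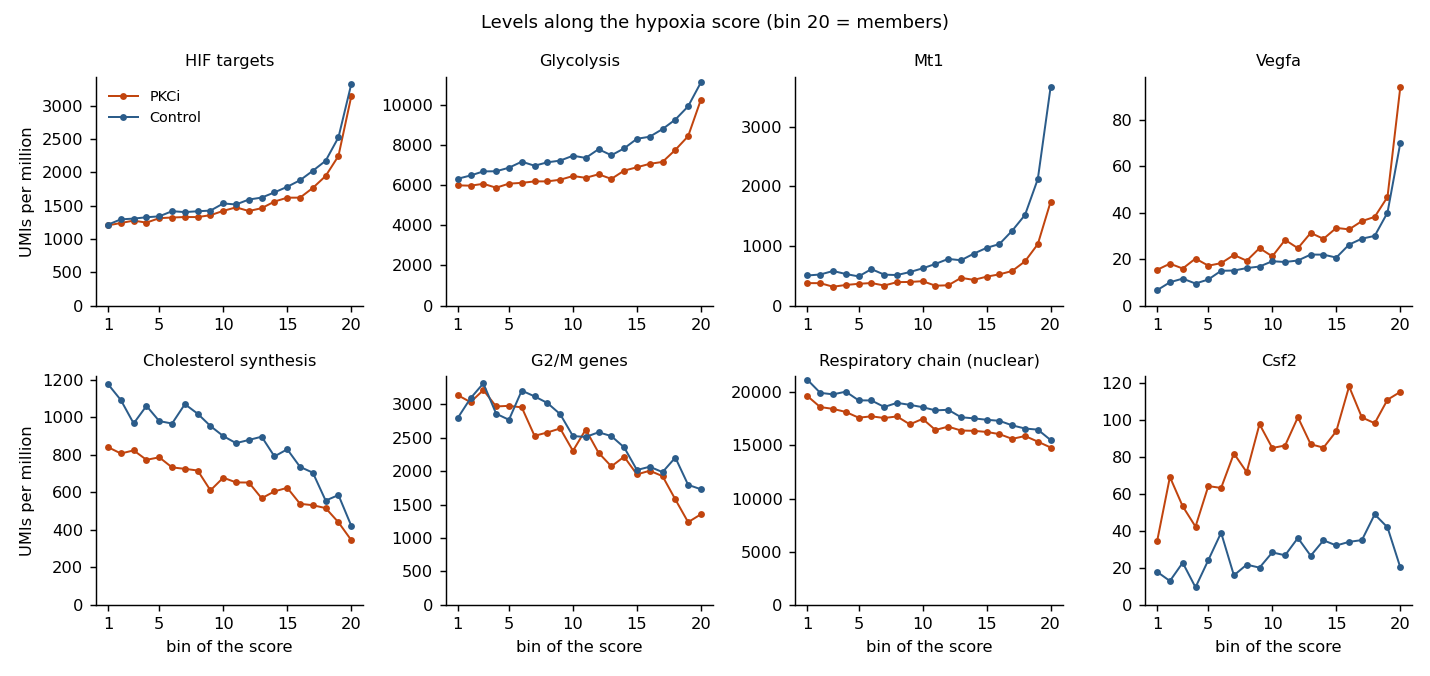
Summed list levels and single genes in UMIs per 1e6 across 20 equal bins of the hypoxia score, lowest on the left, in the PKCi (orange) and control (blue) libraries; bin 20 holds the members. In that bin HIF targets stand at 3143 CPM in PKCi and 3328 CPM in control, and cholesterol genes at 345 and 421 CPM.

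PKCi members were then compared with control members. At the 50 CPM filter, 114 of 3432 genes (3.32%) were at least 1.5-fold higher in PKCi members with an interval apart from 1, and 28 (0.816%) lower. In the rest of the gate 17 of 3426 genes (0.496%) were higher in PKCi and 13 (0.379%) lower. A gene needed 50 CPM in only 1 of the 2 sums, so it could enter through the group where it was high. The part of this filter in the counts, and in their difference from the rest, was not tested. The PKCi members were 95 barcodes, and single barcodes carried many of these values. When each gene's barcode with the most UMIs was left out of each sum, 65 of the 114 higher and 27 of the 28 lower genes were still called. Of the 114 higher genes, 94 had a ratio above 1 in the rest and 11 were called there. Of the 28 lower genes, 1 had a ratio above 1 in the rest and 7 were called there as lower.

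The 12 highest PKCi ratios in members began with Cxcl10 and Csf2. Csf2 was at 115 CPM in PKCi members and 20.3 CPM in control members, 5.68-fold (4.87 to 6.64), and at 79.6 CPM in the PKCi rest and 28.8 CPM in the control rest, 2.76-fold. Cxcl10, an interferon-induced chemokine for T cells, was at 163 CPM in PKCi members and 26.7 CPM in control members, 6.12-fold (5.36 to 6.997). Of its 558 UMIs in PKCi members 265 came from 1 barcode, and without the top barcodes the ratio was 3.78, with 1.84 in the rest. Gdf15, a stress-induced cytokine, was at 94.8 CPM in PKCi members and 30.8 CPM in control members, 3.07-fold (2.65 to 3.56), with 2.22-fold in the rest. Zfp36, which promotes decay of cytokine transcripts, was at 179.7 CPM in PKCi members and 60.2 CPM in control members, 2.98-fold (2.69 to 3.31), with 1.58-fold in the rest. Fos, a subunit of AP-1, was at 750.5 CPM in PKCi members and 286 CPM in control members, 2.63-fold (2.498 to 2.76), with 1.73-fold in the rest.

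Sesn2, a stress-induced regulator of mTORC1, Ltbp3, which binds latent TGF-beta, Gprc5a, Dusp2, Hes1 and Nupr1 were between 2.11- and 2.61-fold higher. For Nupr1, a chromatin-associated stress protein, 265 of 1093 UMIs came from 1 PKCi barcode, and the ratio without the top barcodes was 1.69. Dusp2 reversed when members were the top 2% of the gate, with a log2 ratio of -0.017. Osbpl7, at 5.16-fold (4.14 to 6.46), rested on 1 barcode with 169 of 184 UMIs, and its ratio without the top barcodes was 0.842.

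Mt1, Mt2 and Hmox1 were lower in PKCi, in members and in the rest. Mt1 was 0.475-fold (0.462 to 0.488) in PKCi over control members and 0.494-fold in the rest, Mt2 0.558-fold (0.538 to 0.578) and 0.475-fold, and Hmox1 0.415-fold (0.351 to 0.484) and 0.271-fold. In leukocyte barcodes Hmox1 was at 264 CPM in PKCi and 1172 CPM in control, Mt1 at 1212 and 1618 CPM, and Mt2 at 440 and 435 CPM. The part of free leukocyte RNA in the carcinoma values was not tested. Of the 6 genes of the metallothionein and zinc list, 3 were lower in PKCi members and none higher, with the same counts in the rest. Csnk2a2, a catalytic subunit of casein kinase 2, was at 55.9 CPM in PKCi members and 123 CPM in control members, 0.454-fold (0.388 to 0.526), with 0.518-fold in the rest. Hnrnpa0, an RNA-binding protein, was at 153 CPM in PKCi members and 319.8 CPM in control members, 0.479-fold (0.436 to 0.524), with 0.493-fold in the rest. Rrp9, of ribosome biogenesis, was 0.602-fold (0.503 to 0.711) in members, with 0.946-fold in the rest. Agbl3, Brd1, Mbd2, Foxn2, Cisd3 and Slc22a23 made up the other genes of the 12 lowest, between 0.384- and 0.604-fold.

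**Figure D5:**
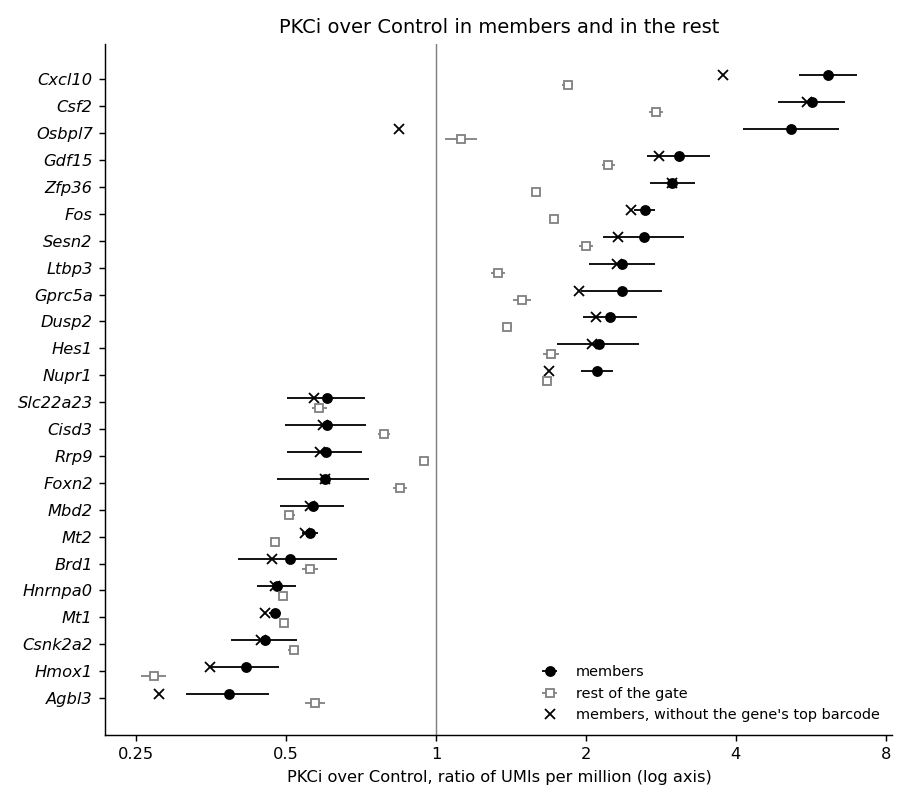
Ratio of PKCi over control in members (filled circles) and in the rest of the gate (open squares) for the 12 highest and 12 lowest genes, on a log axis with exact intervals; crosses give the ratio in members without each gene's top barcode. Csf2 is at 5.68 in members and 2.76 in the rest, Mt1 at 0.475 and 0.494, and the cross of Osbpl7 lies at 0.842.

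At the list filter of at least 20 UMIs, 779 of 11744 genes (6.63%) were higher in PKCi than in control members and 358 (3.05%) lower, with a median log2 ratio of 0.03. Of 33 HIF targets, 3 were higher and 2 lower, with a median log2 ratio of 0.03 in members and -0.17 in the rest. The rest had 2 higher and 3 lower. Of 24 secreted and immune ligands, 8 were higher and 1 lower in members, with a median log2 ratio of 0.30 in members and -0.07 in the rest, where 2 were higher and 5 lower. For glycolysis, 1 of 19 was higher and none lower, with a median log2 ratio of -0.15 in members and -0.26 in the rest. Members of both libraries passed 1 pooled threshold on 5 HIF targets, so similar levels of such genes were partly set by the choice. The HIF target and glycolysis medians therefore cannot show that these genes were alike under both treatments. With the top 5% of each library as members, they were -0.29 and -0.31. Of 22 ATF4 response genes, 7 were higher and none lower, with a median log2 ratio of 0.41 in members and 0.35 in the rest. The rest had 8 higher and 1 lower. Of 17 immediate early genes, 7 were higher and none lower, with a median log2 ratio of 0.57 in members and 0.42 in the rest. The rest had 4 higher and none lower. Of 22 G2/M genes, 6 were lower and none higher, with a median log2 ratio of -0.43 in members and -0.04 in the rest. Of 20 cholesterol genes, 4 were lower and none higher, with a median log2 ratio of -0.25 in members and -0.38 in the rest. In the rest, 1 cholesterol gene was lower, and no G2/M or glycolysis gene was called.

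For some genes the PKCi ratio was larger or smaller in members than in the rest. Ly6a, a surface protein of the Ly6 family, was at 82.2 CPM in PKCi and 52.1 CPM in control members, against 45.7 and 70.95 CPM in the rest, and Ly6c1, of the same family, at 82.2 and 41.1 CPM in members, against 52.4 and 65.7 CPM in the rest. The ratio of the 2 PKCi ratios, members over rest, was 2.46 (2.14 to 2.83) for Ly6a and 2.51 (2.17 to 2.900) for Ly6c1. Col3a1, a fibrillar collagen, was at 125 and 68.1 CPM in members, against 101 and 130.0 CPM in the rest, with a ratio of ratios of 2.37 (2.11 to 2.66). The sum of the 6 fibroblast markers, which include Col3a1, had the same order in members, and its part in this result was not tested. Lcn2, lipocalin-2, had 14.1 (11.7 to 16.95) from 224 UMIs in 8 PKCi members, of which 129 came from 1 barcode, and it was at 7.47 and 336 CPM in PKCi and control leukocyte barcodes. Osbpl7 and Cxcl10 completed the 6 highest. On the other side, Cdca3 and Cdc20, both of mitosis, had 0.5597 (0.4296 to 0.729) and 0.6296 (0.528 to 0.751), and Tfrc 0.598 (0.505 to 0.707), with Pawr, Dusp4 and Rrp9 in the 6 lowest. These intervals treat UMIs as independent and hold for these 2 libraries.

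Interferon-induced genes had medians of opposite sign. Over 19 measured genes the median log2 ratio of members over rest was 0.92 in PKCi, with 16 above 0, and -0.48 in control, with 16 below 0. For PKCi over control members, 12 of 16 were higher and none lower, with a median log2 ratio of 1.56 in members and 0.12 in the rest. The rest had 2 higher and none lower. Several rested on few cells: Ifit3 had UMIs in 2 and Ifit1 in 4 of 95 PKCi members. Without each gene's top barcode the PKCi median of members over rest was 0.55. That step leaves the barcode in for other genes, so it does not remove a barcode that holds several of them. Per barcode, the list's summed level had a median of 647 CPM in PKCi members and 626 CPM in the PKCi rest. In the control library these medians were 414 and 590 CPM. Isg15, a ubiquitin-like protein, was at 37.5 CPM in PKCi and 13.3 CPM in control members, against 16.3 and 14.2 CPM in the rest, with UMIs in 28 PKCi members. Cxcl9, the gene of this list called lower in both libraries, had 0 UMIs in PKCi members and 12 in control members (0.851 CPM), against 1.498 and 2.52 CPM in the rest. Bst2, detected in all 95 PKCi members, was at 361 and 287 CPM in members, against 384 and 377 CPM in the rest.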

How the data were processed

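The deposited matrices hold UMI counts per gene and barcode for 32285 genes, made by the authors with Cell Ranger 7.0.0 per the file headers. The submitters' processing notes list the build GRCm38 and, beside Cell Ranger, the Seurat package, whose use is not given in the sources used here. Counts were not corrected here for free RNA, and depth was 229219749 UMIs (PKCi) and 222641855 UMIs (control).

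From these counts the gate and score were computed with Python 3.11.15, NumPy 2.4.6, SciPy 1.17.1 and pandas 2.3.3. UMIs were summed per library over members and over the rest and expressed per 1e6 UMIs. Levels have exact Poisson intervals, ratios exact conditional intervals and log2 ratios 0.5 added per sum. Leukocyte barcodes had at least 3 Ptprc UMIs and under 3 Krt8 UMIs. Doublets were called with Scrublet in scanpy 1.11.5 at an expected rate of 6% and left in, as an alternative removed them. Neighbours used 30 principal components of 2000 variable genes (scikit-learn 1.9.0).

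The members and lists were chosen with earlier results of these data known. Named genes were the 15 highest and 15 lowest called ratios of members over rest, the 12 highest and 12 lowest of PKCi over control in members and the 6 highest and 6 lowest ratios of ratios. Not named were genes of mitochondria, ribosomes, haemoglobin and antigen receptors, Xist and genes of chromosome Y, predicted genes with no name, and genes under 10% of their leukocyte level. List genes were named when called, or else from the most abundant. Other list genes (Tfrc, Pfkfb3, Loxl2, Hif1a, Arnt, Ldha, Hspa8, Srebf2, Xiap, Ifit1, Ifit3, Isg15 and Bst2 among them) were named after their values were seen. Tested on simulated counts with 200 changed genes of members over rest, the calls recovered 200. Of the unchanged genes among the 3230 genes run, 0 were called. The simulation found 100% of its true members, whereas the real score ran without a gap across the threshold. The simulated result is therefore not an error rate for the real data. Only members over rest was simulated, so the calls of PKCi over control were not tested in this way. There were 17 alternatives. The alternatives leaving out each gene's top barcode and leaving out members led by 1 gene were added after seeing the data. Some genes within these rules are not reported here.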

Additional observations from a re-analysis of the deposited data

How the results depend on the processing

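The PKCi over control ratio of member shares, 0.265, was 0.339 for the top 10% of the gate, 0.183 for the top 2% and 0.345 when barcodes were scored after thinning to 10000 UMIs. The counts of genes higher and lower in members, 52 and 73, were 228 and 307 without a CPM minimum and 13 and 5 at 2-fold, and the count of lower genes was 45 for the top 10% and 179 for the top 2%. PKCi over control in members, 114 higher and 28 lower, became 176 and 118 for the top 2%, 779 and 358 without a CPM minimum and 20 and 5 at 2-fold. Without each gene's top barcode 65 were higher and 37 lower. In the log2 ratios of PKCi over control in members, Osbpl7 reversed to -0.91 without members led by 1 gene and to -0.25 without its top barcode, and Dusp2 to -0.017 for the top 2%. The HIF target median of members over rest was 1.48 in PKCi and 0.94 in control for the top 2%. The glycolysis median in PKCi was 0.46 for the top 10%, 0.79 for the top 2% and 0.46 with the top 5% of each library, and in control 0.63 with ratios divided by their median. For PKCi over control in members, with the top 5% of each library the HIF target median was -0.29 and the glycolysis median -0.31. The glycolysis median reversed to 0.011 for the top 2% and was -0.0026 without members led by 1 gene. The G2/M share, members minus rest, was -11.1 percentage points in PKCi and -5.53 in control without thinning, and the control S phase difference was -3.43 for the top 10%, -3.33 for the top 2% and -2.99 with the top 5% of each library. With the hypoxia lists, rule genes and gate genes kept, 14.0% of neighbours of PKCi members were members. The cause of these shifts was not tested. The sign was kept in 980 of 980 values of named genes over the rest, 309 of 312 of PKCi over control and 195 of 210 list medians. The HIF target median of PKCi over control members, 0.03, was below 0 in 5 more settings: -0.09 for the top 10%, -0.04 after thinning, -0.0071 as a mean over barcodes, -0.0035 with ratios divided by their median and -0.06 without top barcodes. No paired analysis was possible because each treatment had 1 library. With 95 PKCi members, 1 barcode could carry a gene, and shares and levels hold for these libraries only.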
